A study of Mus musculus with 12 samples.

Results

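The chromatin contacts of Nanog were followed in mouse embryonic stem cells (ESC) and in the neuronal committed cells (NCC) derived from them. The members were all interactions with at least 1 anchor that overlapped a 20 kb window around Nanog, chr6:122700000-122720000 of the mm10 build, and their partners were counted in a region of 1.1 mb, chr6:122200000-123300000. An interaction is a pair of anchors, which are stretches of chromatin enriched in ligated fragments, and its score is the number of read pairs that join them. In all 6 tables together, 1152 of 26978933 interactions met the window. By library these were 478 interactions with 1075 read pairs in ESC Hi-C, 443 with 877 in NCC Hi-C, 86 with 113 in ESC FGFR1 HiChIP, 79 with 111 in NCC FGFR1 HiChIP, 26 with 28 in ESC CTCF HiChIP and 40 with 51 in NCC CTCF HiChIP.

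Hi-C measures contacts between all restriction fragments, and HiChIP measures those recovered with an antibody, here against FGFR1, the growth factor receptor that also occurs in the nucleus, or against CTCF, the protein that marks loop and domain borders. The cells were of E14Tg2A, a feeder-independent mouse ESC line. ESC were grown with LIF, and NCC had received 1 μM retinoic acid without LIF for 48 h. The 12 samples were 2 biological replicates of each assay in each cell type, already merged in the tables, which left 6 pooled libraries without an error between replicates. Tests on read pairs therefore compared these libraries and not the conditions, and all intervals are 95% intervals that cover counting error only. All cells of a culture were measured together, so that a change in every cell and a change in the share of cells that hold a contact cannot be told apart. Hi-C libraries held 20745652 and 21228099 read pairs and the HiChIP libraries 1056437 to 3203872, so that changes at Nanog were less well determined in HiChIP. Labels could not be checked against marker genes, because these assays do not measure expression.

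Nanog is a homeodomain transcription factor of the pluripotent state, which is switched off as ESC leave self-renewal. Its gene lies in a cluster with other genes of pluripotent cells and germ cells. Dppa3 (Stella) encodes a maternal factor that protects DNA methylation in the zygote, Gdf3 a ligand of the TGF-beta family, and Slc2a3, on the other side, the glucose transporter GLUT3. Enhancers on both sides of Nanog, toward Dppa3 and within the Slc2a3 gene, are known to act on it in ESC, and Oct4 and Sox2 bind jointly next to its start site.

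In the GENCODE annotation, Nanog takes up chr6:122707489-122714633 on the forward strand, and the start sites of 23 protein-coding genes, Nanog included, lie in the region. The joint Oct-Sox motif (the Oct site TTTGCAT, any base and the Sox site ACAATG, searched on both strands) was found in the Nanog promoter at chr6:122707414-122707427, ending 62 bases before the annotated start site. In RefSeq promoter sequences (GRCm38.p6), this exact motif occurred in 2 of 32851 entries, both of them of Nanog. These entries are short, here chr6:122707239-122707538 and chr6:122707315-122707614. Forms of the motif with other bases, and sites outside the entries, were not searched. The count therefore does not show how rare Oct-Sox sites are. The site is shown because its presence in an anchor differed between libraries, with the motif in capitals.
Nanog Oct-Sox site: cagcttctTTTGCATTACAATGtccatggt
The anchor with this site was the strongest of the window in Hi-C, with 766 read-pair ends in ESC and 482 in NCC. In FGFR1 HiChIP an anchor with 36 ends held the site in ESC, while no anchor held it in NCC. In CTCF HiChIP no anchor held it in either cell type.

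The CTCF consensus motif (its 12-base core, searched on both strands) had 13 matches in the region, 7 forward and 6 reverse. This was 11.8 matches per mb against 4.88 per mb for the whole chromosome 6, and 11 of 55 bins of 20 kb in the region held a match against 9.01% of the bins of the chromosome. Among all promoters, 0.557% held a match. CTCF HiChIP anchors, which covered 19.5% of the region in ESC and 16.8% in NCC, held 7 of the 13 matches in ESC, 6 in NCC and 8 in either. The matches nearest to Nanog were 2 of opposite strand in the intergenic stretch 46 to 47 kb upstream, 1 in a Nanog intron and 1 in a Slc2a3 intron. They are shown with the core in capitals, read on the strand of the match.
46.8 kb upstream, forward, chr6:122660669-122660680: catagtCCAGCAGGTGGCaggaga
46.3 kb upstream, reverse, chr6:122661168-122661179: catctcCCAGTAGGGGGCcttctg
Nanog intron, forward, chr6:122709010-122709021: ctagtgCCAGCAGATGGCataatt
Slc2a3 intron, forward, chr6:122740136-122740147: aaacgtCCAGTAGGTGGCagcaca
The CTCF HiChIP anchor over the upstream pair of matches had 32 read-pair ends in ESC and 15 in NCC, or 26.3 and 14.2 CPM (counts scaled to 1000000 read pairs per library). This did not compare a fixed position, because anchors were called in each library. The whole stretch 40 to 50 kb upstream had 32 ends in 1 ESC anchor and 33 in 2 NCC anchors. Its log2 ratio, NCC over ESC, was 0.25, on 4.74 and 4.99 kb of anchor. The anchor over the Slc2a3 match had 43 and 37 ends, equal to 35.3 and 35.0 CPM. The Nanog intron match lay in no CTCF HiChIP anchor of either cell type.

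The anchors themselves differed between the libraries. In ESC Hi-C, 4 anchors covered 16.0 kb of the window, and in NCC Hi-C 4 anchors covered 12.5 kb. A single ESC anchor, chr6:122701158-122710763, lay at -6.33 to 3.27 kb from the start site, whereas the corresponding anchor of NCC ended at 0.627 kb and was followed by a separate anchor with 141 ends. ESC had a further anchor 7.44 to 9.78 kb downstream of the start site, past the 3′ end of Nanog, with 135 ends, and NCC had no anchor there. FGFR1 HiChIP anchors covered 6.27 kb in ESC and 7.71 kb in NCC. In CTCF HiChIP the ESC anchors were 2 and covered 2.19 kb, and the NCC anchors were 3 and covered 8.07 kb, the NCC anchor upstream of the gene being 5481 bp long against 1519 bp in ESC.

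**Figure D1:**
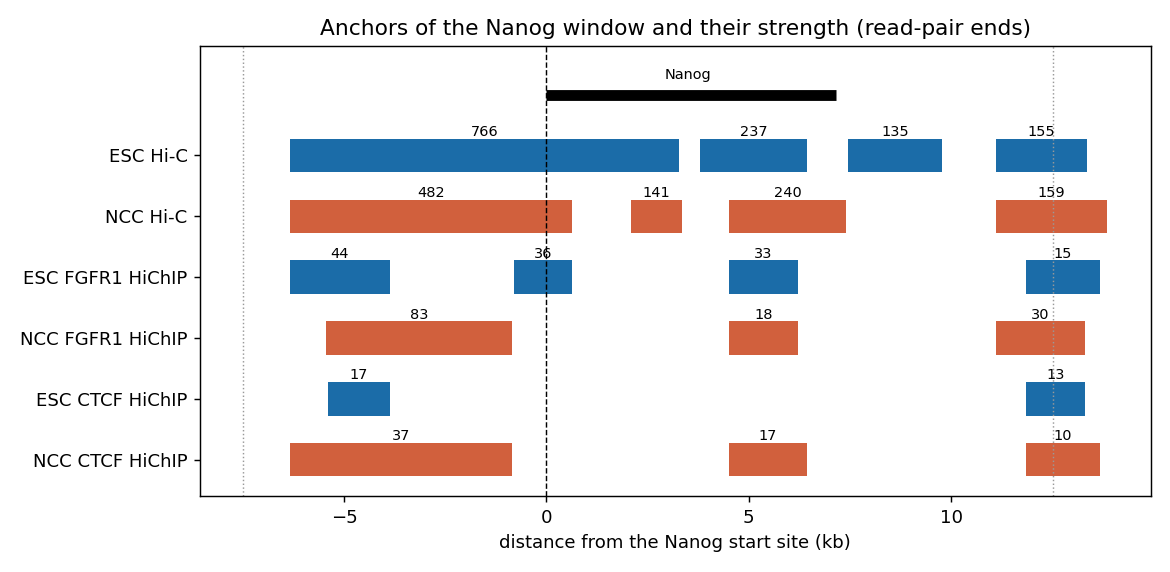
Anchors of the Nanog window in the 6 pooled libraries, by distance from the Nanog start site in kb (dashed line), with the window's ends dotted. The number over each bar is its strength in read-pair ends. The start site lay in an anchor in both Hi-C libraries and in ESC FGFR1 HiChIP, and in no other library.

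To ask whether Nanog as a whole was contacted less in NCC, read pairs of the window were compared after scaling to the library totals. In Hi-C they were 51.8 CPM in ESC and 41.3 in NCC, a log2 ratio (NCC over ESC, as in all ratios that follow) of -0.33 (-0.46 to -0.20), and the decrease passed the exact binomial test adjusted over all 20 kb windows of the genome (adjusted p = 1.56e-06). Such a call was common: 36.5% of 112923 windows were lower in NCC by this test and 35.8% higher, and 32.2% of windows had a lower ratio than Nanog. In windows with at least 500 read pairs, 22.03% had a lower ratio. Read-pair ends in CPM per kb of anchor, over the full length of the anchors that met the window (16.8 and 13.9 kb), were 3.70 in ESC and 3.47 in NCC. This is a log2 ratio of -0.093. The shorter length of chromatin that anchors covered in NCC thus moved with the decrease, and its part was not tested.

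In FGFR1 HiChIP the window had 42.4 CPM in ESC and 34.6 in NCC, a log2 ratio of -0.29 (-0.68 to 0.10) that did not pass the test, with 24.0% of 113466 windows lower in NCC by it and 30.6% higher. Within 10 kb of the start site the ratio was -0.44, which passed the unadjusted test, and over anchors shared by both libraries it was 0.10. In CTCF HiChIP it had 23.0 CPM in ESC and 48.3 in NCC, a log2 ratio of 1.07 (0.38 to 1.79, adjusted p = 0.0066 by the exact binomial test over all windows). In this assay 21.4% of 96847 windows were higher in NCC by the test and 18.2% lower, and 76.1% had a lower ratio than Nanog. The increase in CTCF HiChIP differed from the change in Hi-C by 1.40 on the log2 scale (exact conditional test, p = 5.35e-05, adjusted p = 0.000321 over 6 comparisons) and from that in FGFR1 HiChIP by 1.36 (adjusted p = 0.00182). The sign turned per kb of anchor, for which CTCF HiChIP ends in CPM were 8.22 in ESC and 6.56 in NCC, a log2 ratio of -0.33. Over the anchors shared by both libraries it was 0.68 and did not pass the test. Of the NCC ends, 37 were in the anchor upstream of the gene, 17 in an anchor over the 3′ part of Nanog that ESC lacked, and 10 in the last anchor, against 17 and 13 in the 2 ESC anchors. Set against Hi-C of the same cells, the window was poor in CTCF HiChIP read pairs in ESC (log2 ratio of HiChIP over Hi-C -1.17, -1.77 to -0.63, adjusted p = 1.59e-05 over 8 exact binomial tests), and in NCC the ratio was 0.22 (-0.21 to 0.63). In ESC the anchors covered 2.19 kb in CTCF HiChIP and 16.0 kb in Hi-C. Per kb of anchor the order was the opposite, with 8.22 CPM of ends in CTCF HiChIP and 3.70 in Hi-C, which had no test.

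Contacts between the window and the rest of the region were 535 read pairs in ESC Hi-C and 449 in NCC, a log2 ratio of -0.29 (-0.47 to -0.10, adjusted p = 0.00467 by the exact binomial test), with 31.7% of 107647 windows lower by the same test and 26.8% higher. The ESC anchor past the 3′ end of the gene alone had 73 of these read pairs. Without it, 462 and 449 read pairs were left, the log2 ratio was -0.074 (-0.26 to 0.12) and the call was lost. In the HiChIP libraries the contacts were fewer, 65 in ESC and 56 in NCC with FGFR1 and 15 and 18 with CTCF, with log2 ratios of -0.48 (-1.02 to 0.06) and 0.47 (-0.60 to 1.56). Neither passed the test, by which 15.2% of 105119 windows were lower in FGFR1 HiChIP and 18.0% higher, and 7.35% of 69078 lower in CTCF HiChIP and 8.57% higher.

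The contacts of Nanog were compared between its upstream and downstream sides. Over 25 bins on each side, the upstream share of Hi-C contacts was 50.7% in ESC (Clopper-Pearson interval 46.3% to 54.97%) and 52.8% in NCC (48.1% to 57.5%), a difference that did not pass Fisher's exact test (p = 0.522, adjusted p = 0.783 over the 3 assays). The near balance rested on the nearest bins, and in bins more than 40 kb from the window the upstream share in Hi-C was 40.6% in ESC and 37.7% in NCC. In FGFR1 HiChIP it was 56.9% and 58.9% (Fisher's exact test, p = 0.855). In CTCF HiChIP 8 of 15 read pairs were upstream in ESC and 5 of 18 in NCC, which is 53.3% and 27.8%, again without passing Fisher's exact test (p = 0.169, adjusted p = 0.506). The lowest share was thus in NCC CTCF HiChIP, with an interval of 9.69% to 53.5%.

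The contacts fell off steeply with distance but not evenly. Of the Hi-C read pairs in the region, 41.1% in ESC and 42.8% in NCC were in the 5 bins upstream of the window, and 41.5% and 41.4% in the 5 bins downstream. Bins are named by the distance between their start and that of the window. The bin 40 kb upstream had 85 read pairs in ESC and 64 in NCC. This was 6.32 and 4.63 times the mean at that distance, taken over all windows with a read pair in the library. On the other side, the bin 60 kb downstream, inside Slc2a3, had 53 and 61 read pairs, or 5.97 and 6.71 times the mean, and stood above the nearer bin at 40 kb with 34 and 28. The bins next to Nanog were also stronger than the average: the 5 upstream bins had 1025 ends per bin in ESC and 1122 in NCC. The mean over all bins of the genome with a read pair in the library was 501 and 520.2. Nanog had 2.58 times this mean strength of 20 kb bins in ESC and 1.96 times in NCC. With the strength of both bins taken into account, the 40 kb upstream bin was at 1.07 and 1.14 times the expected number. The 60 kb downstream bin was at 0.96 and 1.21 times, so that both were close to the number expected. The upstream bin still stood above its neighbors, which were at 0.28 and 0.29 times 60 kb upstream and 0.61 and 0.77 times 20 kb upstream. The downstream bin stood above the bin 40 kb downstream, which was at 0.55 and 0.56 times. It lay below the bin 80 kb downstream in ESC, which was at 1.87 times, and above it in NCC, at 0.79 times. The bin 100 kb downstream was at 0.94 times in ESC and 1.62 times in NCC.

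**Figure D2:**
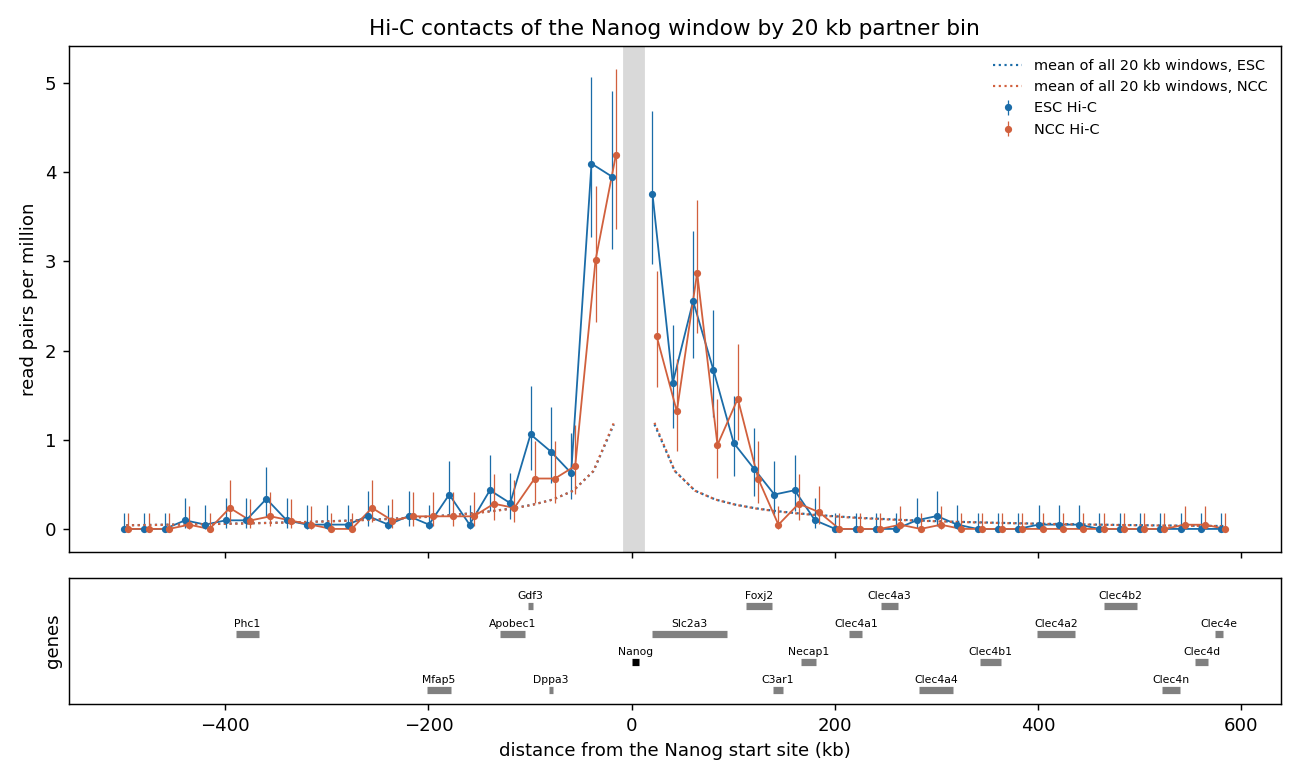
Hi-C read pairs (per 1000000 of the library) between the Nanog window (grey) and each 20 kb bin of the region, by distance from the Nanog start site in kb, in ESC and NCC. Bars are exact 95% Poisson intervals of the counts, and the genes described in the text are drawn below. Dotted lines are the mean at the same distance of all 20 kb windows of the genome with a read pair in the library. Contacts are highest in the bins 20 kb and 40 kb upstream, both cell types have a further peak 60 kb downstream, and few contacts lie beyond 180 kb downstream.

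Of 54 bins, 40 had a Hi-C read pair in either cell type and 16 had at least 10 in both together. Among these 16, 8 were lower in NCC by at least 1.5 times and 1 was higher, while 28.4% of all such bin pairs of the genome were lower and 26.8% higher. Scaled to the contacts of Nanog in the region, 4 were lower and 1 higher, and divided by the strength of both bins 3 were lower and 1 higher. The median log2 ratio of the 16 was -0.53, and 12 of 16 were below 0, against 52.2% of all bin pairs. After adjustment over 1077499 bin pairs, 1 of the 16 passed the exact binomial test (3.94% of all bin pairs were lower by it), and 2 had an unadjusted p under 0.05. The bin that passed was next to the window on the downstream side, over the 3′ end of Slc2a3, and had 78 read pairs in ESC and 46 in NCC, a log2 ratio of -0.80 (-1.35 to -0.25, exact binomial test, adjusted p = 0.0466). Without the ESC anchor that NCC lacked it had 65 and 46, a log2 ratio of -0.53 (-1.11 to 0.035). In FGFR1 HiChIP 4 bins had at least 10 read pairs, of which 1 was lower by at least 1.5 times (36.6% of 68509 bin pairs), namely the bin 20 kb upstream with 13 and 9. In CTCF HiChIP no bin had 10.

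**Figure D3:**
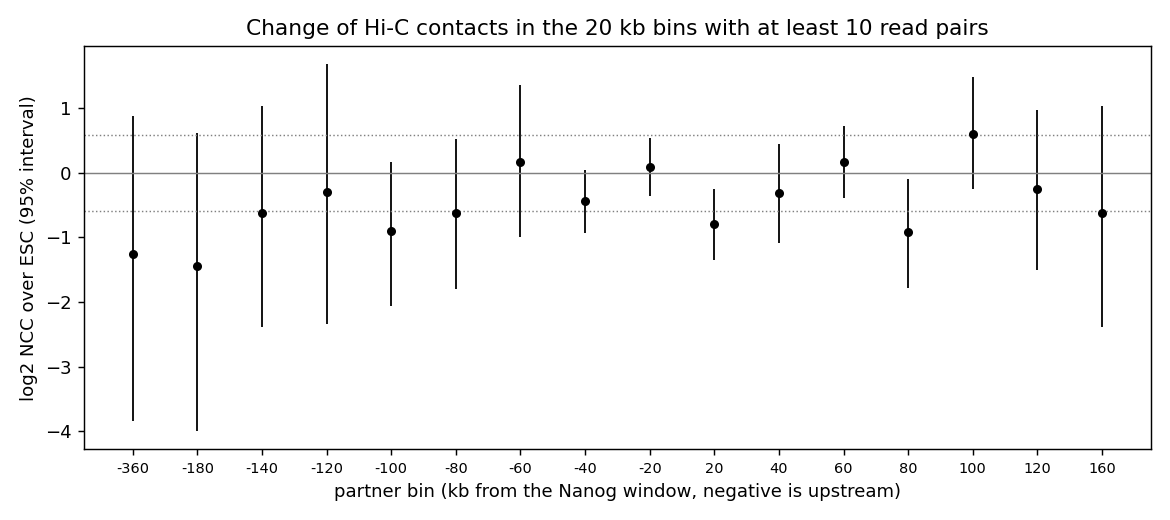
Log2 ratio (NCC over ESC) for the Hi-C contacts between Nanog and each of the 16 bins with at least 10 read pairs, scaled to library totals, with exact 95% intervals. Dotted lines mark 1.5 times either way. The interval excludes 0 in the bins 20 kb and 80 kb downstream, and the 20 kb bin alone passed the test after adjustment.

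Its neighbor 40 kb downstream had a log2 ratio of -0.31 and the bin 20 kb upstream, across the window, 0.085, both with intervals that included 0. Farther on, the bin 80 kb downstream, over the 5′ part of Slc2a3, had 37 read pairs in ESC and 20 in NCC (log2 ratio -0.92, -1.78 to -0.10, adjusted p = 0.178 by the exact binomial test), and the bin 100 kb downstream, with the start sites of Slc2a3 and Foxj2, had 20 and 31 (0.60, -0.26 to 1.49, an interval that includes 0). The lowest ratios among the 16 were in the bins 180 kb upstream, over Mfap5, with 8 and 3 read pairs, and 360 kb upstream, at the start of Phc1, with 7 and 3, at log2 ratios of -1.45 and -1.26. The intervals of both included 0. The 20 bins beyond 180 kb downstream, with the cluster of Clec4 lectin receptor genes of myeloid cells, had 9 read pairs in ESC and 4 in NCC in all. Their mean strength was 82.1 ends per bin in ESC and 70.1 in NCC, against 1029 and 1086 in the 5 bins downstream of Nanog, so that few contacts of any kind were anchored there.

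Contacts with 2 known enhancer positions outside the window, on either side of Nanog, were counted, and both had read pairs with Nanog in ESC and in NCC. The stretch 40 to 50 kb upstream of the start site had 45 Hi-C read pairs with the window in ESC and 47 in NCC, a log2 ratio of 0.030 (-0.59 to 0.65). The stretch 55 to 65 kb downstream had 53 and 42 (-0.37, -0.99 to 0.24), and the 2 stretches shared 32 and 25 read pairs with each other (-0.39, -1.20 to 0.41). The intervals allow changes in either direction. In FGFR1 HiChIP the upstream stretch had 6 read pairs with the window in ESC and 8 in NCC and the downstream stretch 8 and 7, and in CTCF HiChIP 1 and 2, and 4 and 2. Between the anchors inside the window there were 84 Hi-C read pairs in ESC and 67 in NCC. The anchor strength of the downstream stretch in FGFR1 HiChIP was 177 ends in ESC and 82 in NCC (log2 ratio -1.38), with 6.72 kb and 2.92 kb covered by anchors, and it was 1209 and 1156 ends in Hi-C (-0.10).

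Contacts of Nanog with Dppa3, whose start site is at -81.1 kb, were few. The gene body had 7 Hi-C read pairs with the window in ESC and 3 in NCC, and with 5 kb added on each side it had 16 and 4, a log2 ratio of -2.03 (-4.07 to -0.40). The same stretch had 18 and 4 read pairs with the downstream stretch at 55 to 65 kb (-2.20, -4.23 to -0.60), and 14 and 11 with the upstream stretch at 40 to 50 kb (-0.38, -1.66 to 0.86). These were 3 of 6 pairs among the 4 elements, and the flank of 5 kb was chosen after seeing the data. The strength of the Dppa3 stretch was 705 ends in ESC Hi-C with 7.83 kb of anchor and 402 in NCC with 6.04 kb (-0.84). This decrease was that of the chosen stretch: within 10 kb of the Dppa3 start site the log2 ratio of strength was -0.12, and the 20 kb bin that holds the gene had 877 and 1033 ends, or 42.3 and 48.7 CPM. In this whole 20 kb bin the contacts with Nanog were 18 and 12, a difference within its interval (-0.62, -1.80 to 0.52). Between the Dppa3 stretch with its 5 kb flanks and Nanog, HiChIP gave 3 and 3 read pairs with FGFR1 and 2 and 0 with CTCF. The gene body alone had 0 in every HiChIP library. The whole 20 kb bin had 3 and 3 with FGFR1 and 3 and 0 with CTCF.

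Of the other genes upstream, Gdf3 had 9 Hi-C read pairs with the window in ESC and 10 in NCC, and Apobec1, the cytidine deaminase that edits the apolipoprotein B messenger RNA, had 17 and 15. Phc1, a Polycomb repressive complex subunit, had 9 and 5. None of these differed beyond its interval. In FGFR1 HiChIP the counts were 2 and 4 for Gdf3, 2 and 1 for Apobec1 and 0 and 1 for Phc1, and in CTCF HiChIP 0 and 0, 1 and 0, and 0 and 0.

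Downstream, Slc2a3 with its 73.8 kb had 215 Hi-C read pairs with the window in ESC and 170 in NCC, a log2 ratio of -0.37 (-0.67 to -0.08), 25 and 18 in FGFR1 HiChIP and 5 and 8 in CTCF HiChIP. The ESC Hi-C anchor past the 3′ end of Nanog, which NCC lacked, had 13, 10 and 4 read pairs with the bins 20, 60 and 80 kb downstream. These bins overlap Slc2a3, and the Slc2a3 ratio without this anchor was not computed. The anchor strength of Slc2a3 was 3911 and 3877 ends in Hi-C. Foxj2, a forkhead transcription factor, had 19 and 22 Hi-C read pairs, 1 and 2 with FGFR1 and 1 and 1 with CTCF. The genes after it, C3ar1 (the receptor of complement C3a) and Necap1 (a factor of clathrin-coated vesicles), are named after their values were seen: C3ar1 had 8 Hi-C read pairs with the window in ESC and 1 in NCC (-3.03, -8.50 to -0.13), and Necap1 5 and 0. Their anchor strength was lower in NCC as well, at 430 and 137 ends for C3ar1 (-1.68) and 504 and 115 for Necap1 (-2.16). Of the 22 genes other than Nanog, 15 shared a Hi-C read pair with it in ESC and 15 in NCC. Mfap5, a microfibril protein, had 5 in each.

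Single interactions were led by neighbors. In ESC Hi-C the highest score of the window was 41, with an anchor at chr6:122688460-122696811, at -19.03 to -10.7 kb over the pseudogene Gm10420, and the next was 25, with chr6:122659515-122667030, over the upstream pair of CTCF matches. In NCC Hi-C the highest score was 22, with chr6:122761925-122773648 in Slc2a3, followed by 20 with chr6:122692422-122696811 over Gm10420. The corresponding ESC anchor in Slc2a3, chr6:122761053-122765762, had a score of 20. Anchors differed in length between the libraries, so that these scores do not compare fixed positions. The whole bin 20 kb upstream, which holds Gm10420 anchors, had 82 read pairs in ESC and 89 in NCC. Scores in HiChIP were at most 5, and 84.9% to 94.4% of the interactions with 1 anchor in the window had a score of 1, so that single interactions of HiChIP could not be compared. By anchor, the ESC FGFR1 HiChIP anchor on the start site had 15 of its 17 region contacts upstream, and the ESC FGFR1 HiChIP anchor at -6.33 to -3.87 kb had 8 of 20 upstream. The other ESC FGFR1 HiChIP anchors had 8 of 17 and 6 of 11 upstream. The ESC Hi-C anchor over the start site had 164 of 300. The start-site anchor was thus the most uneven of the 4 in its library, on few read pairs, and the difference was not tested.

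CTCF HiChIP strength also differed in the rest of the region. Of all 20 kb bins of the genome with an end in either CTCF HiChIP library, 48.8% were lower in NCC and 51.2% higher. The 5 bins upstream of the window had 221 CPM in ESC and 121 in NCC, a log2 ratio of -0.87, and 4 of 5 bins were lower, with 25.3 and 15.1 kb covered by anchors. The window itself had a log2 ratio of strength of 1.299, on 2.19 and 8.07 kb of anchor. In the 5 bins downstream it was 199 and 292 CPM (0.55, 3 of 5 bins higher, 18.5 and 23.6 kb of anchor), and in the 4 bins after those 84.6 and 197 CPM (1.22, 3 of 4 higher and the last at 0 in both, 14.5 and 23.7 kb). The 20 bins beyond 180 kb downstream were lower again, at -0.40 on 48.5 and 33.3 kb. Farther upstream the log2 ratio was -1.13 in the next 100 kb, on 23.0 and 16.0 kb of anchor. In the farthest 300 kb upstream it was -0.62, on 83.7 and 65.2 kb. The length covered by anchors thus moved with the strength in each stretch. Per kb of anchor the log2 ratios were -0.091 in the 5 bins upstream, and -0.65 and -0.27 in the 2 stretches farther upstream. They were -0.33 in the window, 0.27 and 0.44 downstream, and 0.093 beyond 180 kb downstream. The sign turned in the window and in the stretch beyond 180 kb downstream. These ratios per kb were not taken on the covered lengths given here. In the window they used whole anchors, 2.995 kb in ESC and 9.239 kb in NCC. Hi-C strength had log2 ratios of 0.097 in the 5 bins upstream, -0.37 in the window, and 0.045 and -0.30 downstream. Per kb of anchor these were -0.18, -0.093, -0.15 and -0.14. Farther upstream, Hi-C strength was lower in NCC, at -0.41 in the next 100 kb and -0.47 in the farthest 300 kb (-0.19 and -0.36 per kb of anchor). FGFR1 HiChIP strength had -0.44 in the 5 bins upstream, -0.23 in the window, and -0.31 and -0.56 downstream. All of them were below 0 per kb of anchor as well (-0.32, -0.43, -0.18 and -0.41). In the same 2 stretches farther upstream it had -0.11 and -0.36 (-0.072 and -0.64 per kb of anchor). These ratios had no test.

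**Figure D4:**
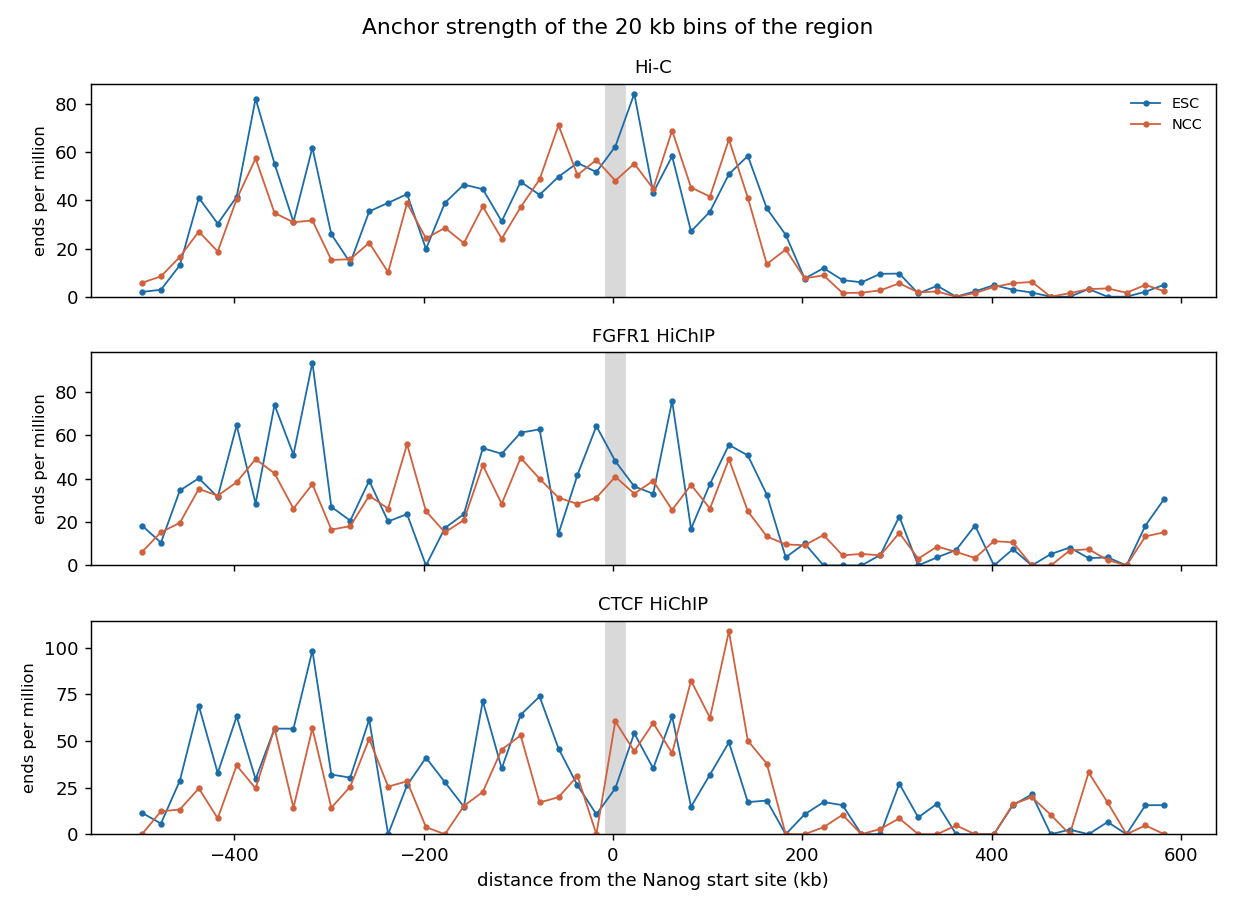
Anchor strength in read-pair ends (per 1000000 read pairs) of each 20 kb bin of the region in Hi-C, FGFR1 HiChIP and CTCF HiChIP, for ESC and NCC, by distance from the Nanog start site in kb, with the Nanog window in grey. In CTCF HiChIP most NCC values lie under the ESC values upstream of Nanog and over them from the window to about 160 kb downstream, while per kb of anchor the window was lower in NCC.

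Among 30 genes of the pluripotency network, Nanog was compared by the anchor strength within 10 kb of the start site. In Hi-C it had 1138 ends in ESC and 998 in NCC, a log2 ratio of -0.22 (-0.35 to -0.099), which was the 21st of 30 counted from the lowest. A read pair can give 2 of these ends, so that this interval is too narrow. On read pairs within the same 10 kb flanks, the counts were 945 and 856, a log2 ratio of -0.18 (-0.31 to -0.041). In the list 7 genes were lower by at least 1.5 times and 1 was higher, where 15.7% of 20442 protein-coding genes were lower and 13.0% higher, and the median was -0.36 against -0.042 over all genes. The lower genes were Dppa4 (-1.73) and Dppa2 (-0.81), neighbors that act on bivalent promoters, the nuclear receptor Nr5a2 (-0.80), the Krüppel-like factor Klf5 (-0.77), the 5-methylcytosine oxidase Tet1 (-0.70), Phc1 (-0.69) and Prdm14 (-0.69), and the higher gene was the zinc-finger factor Zfx (1.04). Nanog was not among them.

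In FGFR1 HiChIP Nanog had 113 ends in ESC and 101 in NCC (-0.43), the 15th from the lowest. Here 13 list genes were lower by at least 1.5 times and 6 higher, with 30.8% and 23.9% of 20253 genes as background, and the extremes were Klf5 (-2.46), Zfx (-1.97) and the Nodal co-receptor Tdgf1 (-1.80) at the low end and the nuclear receptor Nr0b1, the zinc-finger factor Sall4 (1.67) and Prdm14 (1.52) at the high end. Nr0b1 had 0 ends in ESC, set to 3 for the ratio, and 18 in NCC, a log2 ratio of at least 2.32. In CTCF HiChIP Nanog had the highest ratio of the 29 genes with at least 10 ends, 17 in ESC and 54 in NCC (1.87), followed by the transcription factors Tfcp2l1 (1.82) and Zfp42 (1.28). Per kb of anchor in the 20 kb window the sign at Nanog was the opposite, as given above. Its neighbor Dppa3 had the lowest, with 90 and 18 ends (-2.12), followed by the growth factor Fgf4 (-1.83) and the RNA-binding protein Lin28a (-1.66). With 11 list genes lower and 8 higher against 32.7% and 27.8% of 19106 genes, wide changes in both directions were common in this assay.

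**Figure D5:**
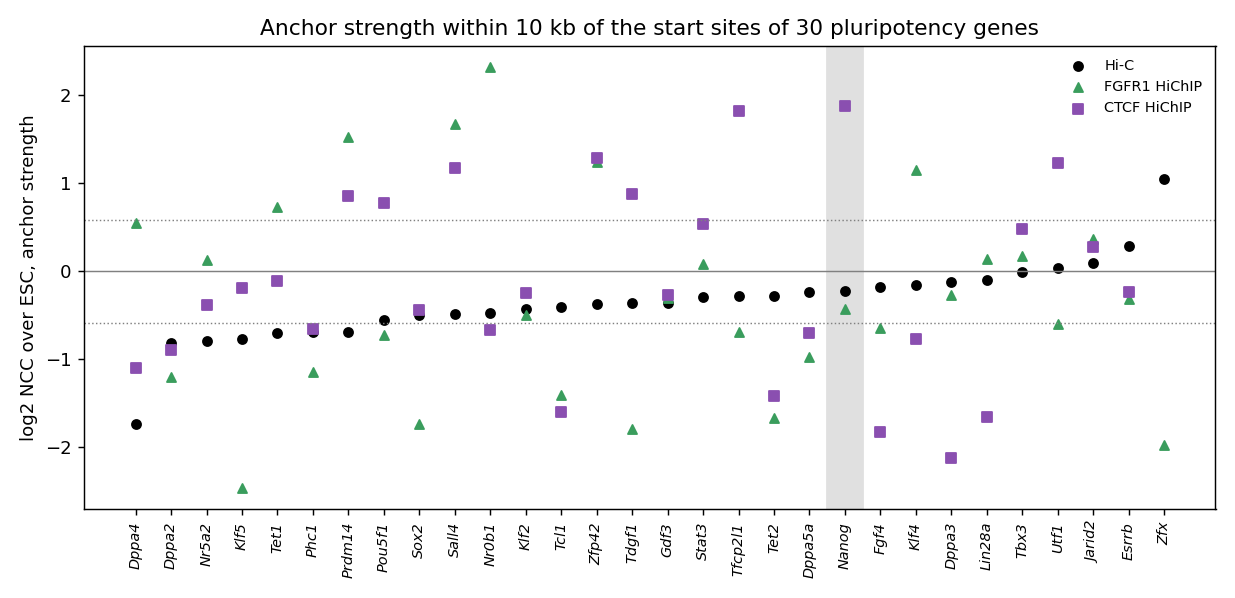
Log2 ratio (NCC over ESC) for the anchor strength within 10 kb of the start sites of 30 pluripotency genes, ordered by Hi-C, in the 3 assays, with dotted lines at 1.5 times either way. Nanog (shaded) is near the middle in FGFR1 HiChIP, above the median in Hi-C, and the highest in CTCF HiChIP, where Dppa3 is the lowest, although per kb of anchor the 20 kb window of Nanog was lower in NCC.

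Contacts with other chromosomes made up 11.6% of the Hi-C read pairs of the window in ESC (9.77% to 13.7%) and 14.4% in NCC (12.1% to 16.9%), with 10.1% and 11.6% in the whole libraries. They were scattered over 121 and 115 bins of 1 mb, with at most 2 and 3 read pairs in a bin. With the 26 list genes on other chromosomes, within 100 kb of their start sites, Nanog shared 1 read pair in ESC (Utf1) and 2 in NCC (Pou5f1 and Esrrb), where 0.515 and 0.463 were expected from the inter-chromosomal strength. Exact Poisson intervals of these counts, 0.0253 to 5.57 and 0.242 to 7.22, include the expected numbers, and a preference among these genes was not detectable at this depth.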

How the data were processed

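The authors processed reads with HiC-Pro and hichipper at default settings (all ligation types, each library with its own anchors, mm10) and deposited whole-number counts: for each 2 joined anchors, the read pairs of both replicates summed, neither filtered on q nor scaled between cell types. Totals on chromosomes 1 to 19 and X were 20745652 (ESC) and 21228099 (NCC) read pairs in Hi-C, 2662606 and 3203872 in FGFR1 HiChIP, and 1218098 and 1056437 in CTCF HiChIP. Every anchor of the region had a GATC site of GRCm38 within 4 bases of both ends, and genes came from GENCODE M21.

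Libraries were scaled to these totals. An anchor met the window by overlap, and a partner was placed in its 20 kb bin by midpoint. Ratios had Clopper-Pearson intervals and two-sided exact binomial tests, adjusted by the Benjamini-Hochberg method over all 20 kb windows or bin pairs with at least 10 read pairs, each bin taken in turn as the viewpoint. A count of 0 was set to 3 for a fold in the background. Shares were compared by Fisher's exact test, and changes of 2 assays by an exact conditional test. Strength is the number of read-pair ends, and a read pair with both ends in a window counts as 2 ends. Per kb of anchor, the ends of the window were divided by the full length of its anchors. Lengths given as covered are only the parts inside the window or stretch. PCR copies had been removed by position, and read pairs without molecular identifiers may not be independent.

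The exact binomial test over bin pairs was checked on simulated counts, with changes placed among the pairs with the most read pairs. A 2-fold change was recovered in 98% of changed pairs in Hi-C, 2% in FGFR1 HiChIP and 3% in CTCF HiChIP. A 4-fold change was recovered in 100%, 52% and 23%, so that many such changes in HiChIP were missed. The members, the 30 pluripotency genes and the other choices were made with earlier results of these data known. Named genes were Dppa3, Gdf3, Apobec1, Slc2a3, Phc1 and Foxj2 (1 further gene is not reported here), any other gene in the 3 highest and 3 lowest tested bins, and, of the list, Nanog, those past 1.5 times in Hi-C and the 3 extremes at each end in HiChIP. Alternatives were other scalings, windows, bins, folds, minimums and a minimum score of 2. Python 3.11.15, NumPy 2.4.6, pandas 2.3.3, SciPy 1.17.1 and matplotlib 3.10.9 were used.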

Additional observations from a re-analysis of the deposited data

Results flagged for a closer look

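The change of the read pairs of the Nanog window from ESC to NCC differed between assays. It was higher in CTCF HiChIP than in Hi-C by 1.40 on the log2 scale (exact conditional test, p = 5.35e-05, adjusted p = 0.000321 over 6 comparisons), and higher than in FGFR1 HiChIP by 1.36 (p = 0.000608, adjusted p = 0.00182). The CTCF HiChIP libraries held 28 and 51 read pairs in the window, on 2.19 kb and 8.07 kb of anchor. Per kb of anchor the log2 ratios were -0.33 in CTCF HiChIP, -0.093 in Hi-C and -0.43 in FGFR1 HiChIP, so that CTCF HiChIP then lay below Hi-C. These ratios had no test.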

How the results depend on the processing

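Replicates were merged before deposition, and leaving one out was not run. No paired analysis was possible because the tables hold 1 pooled library per cell type and assay and carry no replicate numbers. The alternatives on anchor length and on anchors shared by both libraries were chosen after seeing the data. The tests of alternatives are unadjusted.

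For the read pairs of the Nanog window, the log2 ratio in Hi-C was -0.093 per kb of anchor. In FGFR1 HiChIP it was 0.035 with scores of at least 2 and 0.10 over shared anchors, and it passed the unadjusted test at -0.42 without read pairs inside a single anchor and at -0.44 within 10 kb of the start site. In CTCF HiChIP it was -0.33 per kb of anchor, 0.68 over shared anchors without passing the test, and 2.64 with scores of at least 2, from 4 and 17 read pairs. For contacts in the region, Hi-C lost its call at -0.11 within 10 kb of the start site and at -0.074 over shared anchors, and was -0.092 when divided by the strength of both bins, while FGFR1 HiChIP passed the unadjusted test at -0.66 within 10 kb of the start site. The upstream share changed by -2.90 percentage points in Hi-C in bins over 40 kb away and by -3.58 in FGFR1 HiChIP with scores of at least 2. The cause was not tested.

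Of 9 changed Hi-C bins, 8 lower and 1 higher, 5 were left when scaled to the contacts of the region (4 lower), 2 at a fold of 2, 5 with a minimum of 20 read pairs, 4 when divided by the strength of both bins (3 lower), and 0 by the methods' paired test over 1 kb by 1 kb bins. The split was 8 lower and 3 higher with bins of 10 kb, 5 and 1 with bins of 40 kb, and 9 and 4 with no minimum. In FGFR1 HiChIP the 1 bin became 2 with bins of 10 kb or 40 kb and 4 with no minimum, and 0 by the regional scaling, the fold of 2, the division by strength and the paired test. In CTCF HiChIP 0 became 2 with no minimum. Of the pluripotency genes, 2 in Hi-C and 11 in CTCF HiChIP passed a fold of 2. In Hi-C 7 were lower and 2 higher within 5 kb of the start sites, and in FGFR1 HiChIP 8 and 5 past a fold of 2. In CTCF HiChIP the contacts in the region, not past the test, were -0.21 when divided by strength and 0.30 to 1.21 otherwise, and the change of the upstream share was -50.0 to -11.4 percentage points. For these results, no other alternative changed a direction or a call, or moved a total count by over 1.5 times. Counts under 10 per bin limit the HiChIP profiles.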
